A study of Mus musculus with 12 samples.

Results

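Interferon-response genes were examined in the ventral tegmental area (VTA), the midbrain region whose dopaminergic neurons project to the limbic forebrain, of wild-type C57BL/6 mice (the labels give C57) aged 2 months (young), 10 months (middle aged) and 18 months (late middle-aged). The members were the 9 genes Ifit1, Ifit2, Ifit3, Oasl2, Bst2, Irf9, Stat2, Irf7 and Usp18, and every probe set that the array's annotation listed with exactly 1 of these symbols was taken. This gave 10 probe sets, 2 of them for Stat2, out of 45037 tested probe sets that represented 18193 genes. Each age had 4 Affymetrix mouse expression arrays, age was the only factor that the labels varied, and each array held RNA pooled from 5 mice, so the replicate was a pool and the error says nothing about single mice. Whole VTA was dissected by hand from brain slices, and therefore neurons, glia and vessels contributed together. All values were RMA expression values on the log2 scale.

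Type I interferons bind the receptor pair Ifnar1 and Ifnar2, which activates the kinases Jak1 and Tyk2. These phosphorylate the transcription factor Stat2, which works in a complex with Irf9 to drive genes that carry an interferon-stimulated response element (ISRE) in their promoter. The products are mostly antiviral proteins, some of which feed back on the pathway, and in brain they are known to be made by microglia, astrocytes, vessel cells and neurons.

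Several features of the arrays bear on every value below. Young arrays 3 and 4 were nearly identical (correlation 0.998, against 0.967 to 0.996 in the 17 other pairs of the same age) and were averaged as 1 sample, which left 3 samples at 2 months and 4 at each other age. The first principal component, computed over all tested probe sets, held 44.2% of the variance. Samples were split by the sign of their score on it. The 4 positive ones were young array 2 (20.5), 10-month array 3 (69.7) and 18-month arrays 2 (41.3) and 4 (60.2). They are called the PC1-positive arrays here. The other 7 samples ran from −62.4 to −10.5, so the scores were graded and did not form clearly separate sets. Control probe sets differed with age as well. The difference between 3′ and 5′ probe sets of the control transcripts was 3.29 to 3.63 at 2 months, 1.69 to 2.44 at 10 months and 1.64 to 2.17 at 18 months on the log2 scale. The poly-A controls averaged 5.67 to 5.83, 5.92 to 6.08 and 6.23 to 6.89 at the same ages. Th, the enzyme that makes the dopamine precursor, was at 13.0 ± 0.32, 13.8 ± 0.12 and 13.8 ± 0.02 (SD, n = 3, 4 and 4). The paper used TH staining for dopaminergic neurons of both VTA and the adjacent substantia nigra, so this level does not separate these regions.

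RefSeq promoter windows (GRCm38.p6, 250 bases before to 50 after each annotated start) were given for 8 of the 9 members, 10 windows in all, and Usp18 had none. They were searched on both strands for the core of the ISRE, spelled GAAANNGAAA, which reads TTTCNNTTTC on the other strand, and for the gamma-activated site (GAS), spelled TTCNNNGAA. The ISRE core was found in 4 members, Ifit1, Ifit3, Stat2 and Bst2, against 3.44% of all 32851 windows of this length. Ifit1, Ifit3 and Bst2 held it 2 times each, as did 0.225% of all windows. The matches of Ifit1 lay 104 and 85 bases before the start, those of Ifit3 156 and 122, that of Stat2 222, and those of Bst2, which overlap each other, 130 and 124. The GAS letters, found in 8.3% of all windows, were in an Ifit2 window and in that of Bst2, where they overlap the ISRE core. The stretches before the start are shown for the genes with a match. Capitals mark the ISRE core, except in Ifit2, where they mark the GAS letters. Each is given 5′ to 3′ on the gene's strand, from chr19:34640639-34640888 (plus strand) for Ifit1, chr19:34583279-34583528 (plus) for Ifit3, chr19:34550444-34550693 (plus) for Ifit2, chr10:128270248-128270497 (plus) for Stat2 and chr8:71537473-71537722 (minus) for Bst2.
Ifit1: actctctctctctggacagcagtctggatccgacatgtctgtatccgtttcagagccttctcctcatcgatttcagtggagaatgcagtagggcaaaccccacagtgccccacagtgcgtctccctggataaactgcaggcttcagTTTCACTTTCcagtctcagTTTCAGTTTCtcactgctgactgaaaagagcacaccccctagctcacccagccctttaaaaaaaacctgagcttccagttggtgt
Ifit3: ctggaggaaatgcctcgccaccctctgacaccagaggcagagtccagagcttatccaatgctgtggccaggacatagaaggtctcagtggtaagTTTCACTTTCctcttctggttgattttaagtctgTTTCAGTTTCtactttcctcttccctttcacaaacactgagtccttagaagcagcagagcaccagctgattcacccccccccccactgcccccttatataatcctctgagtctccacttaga
Ifit2: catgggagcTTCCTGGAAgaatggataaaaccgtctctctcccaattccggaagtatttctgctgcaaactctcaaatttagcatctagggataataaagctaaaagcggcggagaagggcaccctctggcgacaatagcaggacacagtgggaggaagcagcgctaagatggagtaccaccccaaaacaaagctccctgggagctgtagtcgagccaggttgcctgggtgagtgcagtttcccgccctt
Stat2: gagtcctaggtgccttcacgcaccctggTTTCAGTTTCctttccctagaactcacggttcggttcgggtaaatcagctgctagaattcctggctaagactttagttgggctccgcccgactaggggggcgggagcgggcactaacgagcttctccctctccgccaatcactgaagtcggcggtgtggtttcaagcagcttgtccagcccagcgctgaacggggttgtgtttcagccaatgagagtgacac
Bst2: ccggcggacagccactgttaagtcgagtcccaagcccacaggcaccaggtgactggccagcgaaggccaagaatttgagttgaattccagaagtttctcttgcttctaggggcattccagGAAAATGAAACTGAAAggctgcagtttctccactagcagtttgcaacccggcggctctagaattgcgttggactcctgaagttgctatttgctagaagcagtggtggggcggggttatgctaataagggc
The windows of Irf7, Irf9 and Oasl2 and the other window of Ifit2 held neither spelling. The Ifit genes are neighbours on chromosome 19, with the Ifit3 start 32.8 kb beyond that of Ifit2 and the Ifit1 start 57.4 kb beyond that of Ifit3.

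To determine whether the members changed between young and late middle-aged VTA, 18-month samples were compared with 2-month samples. Only Ifit3 rose past the thresholds of the study (adjusted p under 0.05 and a change above 1.3-fold), by 1.87-fold, and no member fell. Thus 1 of 10 member probe sets was called higher, while 4.55% of all 45037 probe sets were. At an unadjusted p under 0.05 there were 5 of 10 (Ifit1, Ifit3, Irf9, Oasl2 and Usp18), against 23.6% of all probe sets. The median change of the members was 0.48 on the log2 scale and that of all probe sets −0.06. In these whole-tissue samples, a change in the number of cells of a type and a change in RNA per cell cannot be told apart.

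**Figure D1:**
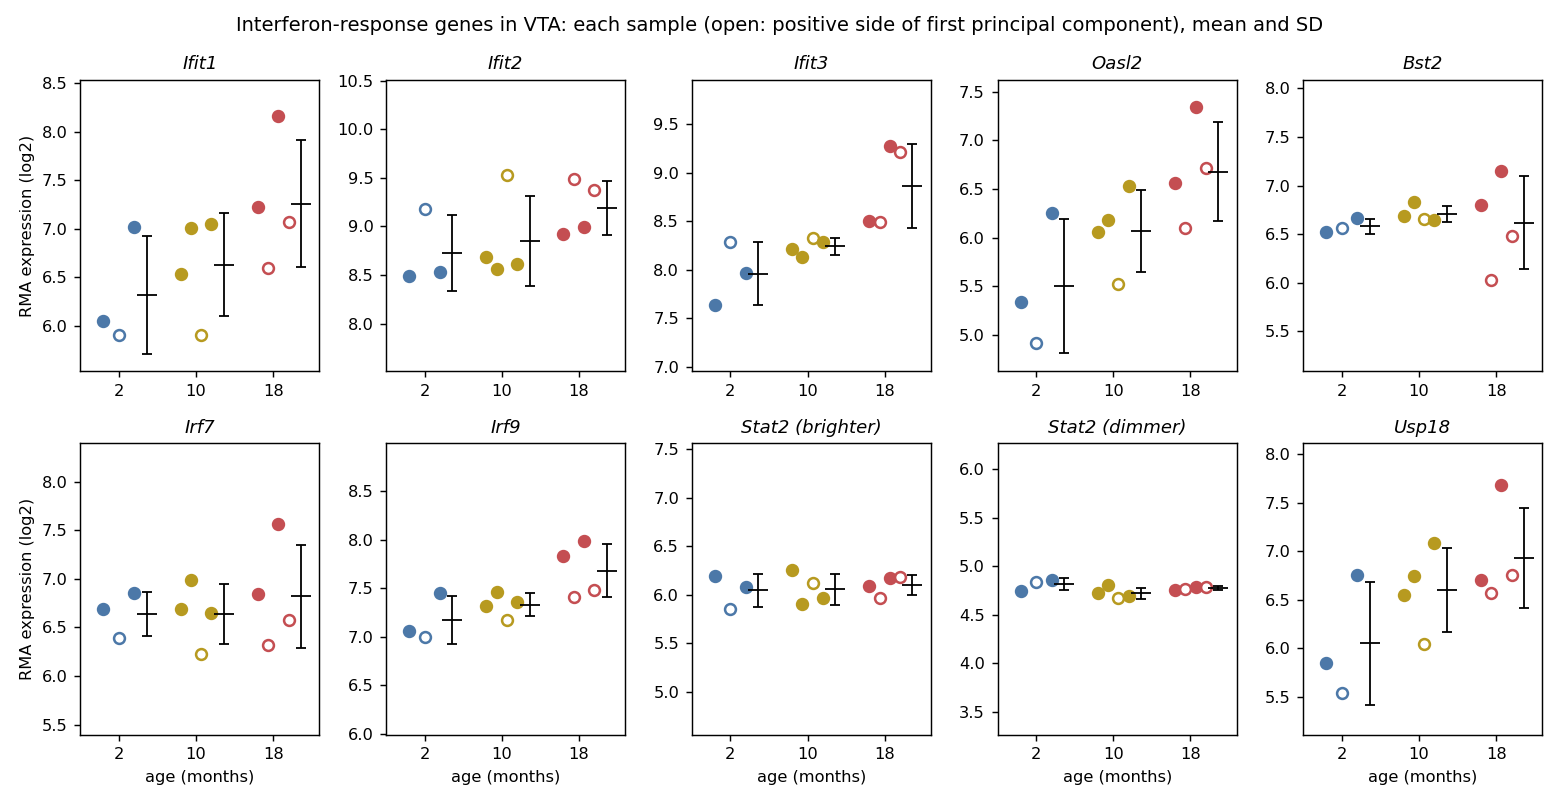
RMA expression (log2, y axis, spanning 3 log2 units in each panel) of each member probe set in every sample by age in months (x axis), with the mean and SD of each age as a black dash and bar (n = 3, 4 and 4) and PC1-positive arrays as open circles. Ifit3 at 18 months lies between 8.49 and 9.27, above all younger samples, while Ifit2 is highest and Ifit1, Irf7, Irf9, Oasl2 and Usp18 are mostly among the lowest in the open circles.

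The Ifit proteins bind RNA, and Ifit3 acts as their partner and, in human cells, stabilises IFIT1. The Ifit3 probe set (1449025_at) read 7.64, 8.28 and 7.97 at 2 months, 8.21, 8.13, 8.33 and 8.28 at 10 months, and 8.50, 8.49, 9.27 and 9.21 at 18 months, each in the order array 1, array 2, arrays 3 and 4 at 2 months and arrays 1 to 4 at the other ages. Every 18-month sample was above every 2-month and every 10-month sample, and arrays 3 and 4 of 18 months were the highest. A complete separation with all 18-month samples above all 2-month samples was found in 10.4% of all probe sets, and above all 10-month samples in 1.11%. The change at 18 against 2 months was 0.90 ± 0.21 on the log2 scale (SE, limma adjusted p = 0.029). The call was lost without young array 1 (0.74, limma adjusted p = 0.161), without young arrays 3 and 4 (0.90, adjusted p = 0.0605), without 18-month array 3 (0.77, adjusted p = 0.067) or 4 (0.78, adjusted p = 0.0697), and when only these ages were fitted (0.90, adjusted p = 0.0528). Over all probe sets, 3359 were called with all samples and 423 without young array 1. Adjusted for the 3′ to 5′ difference of the controls, Ifit3 was at −0.11 ± 0.52, and no probe set of the array was called. Since that difference did not overlap between 2-month and older samples, it and age cannot be told apart here. The mouse also has Ifit3b, a close copy of Ifit3 on the same chromosome that the annotation paired with no probe set, and RNA of the copy could not be distinguished from that of Ifit3.

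Ifit1 binds RNA whose cap lacks the host's methyl marks and blocks its translation. Its probe set (1450783_at) read 6.05, 5.91 and 7.02 at 2 months, 6.54, 7.01, 5.91 and 7.05 at 10 months, and 7.22, 6.60, 8.16 and 7.07 at 18 months. Young arrays 3 and 4, at 7.02, were above 18-month array 2, so these ages overlapped, and 18-month array 3 stood well above the rest of its age. The change at 18 against 2 months was 0.94 ± 0.39 (limma adjusted p = 0.17), about as large as that of Ifit3 with a wider error. Ifit2, an Ifit protein that restricts virus infection of neurons in mice, behaved differently among arrays. Its probe set (1418293_at) read 8.49, 9.18 and 8.53 at 2 months, 8.69, 8.56, 9.53 and 8.61 at 10 months, and 8.92, 9.49, 8.99 and 9.37 at 18 months. The highest Ifit2 samples were the PC1-positive arrays, whatever their age, and the ages overlapped (0.46 ± 0.25, limma adjusted p = 0.303).

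Oasl2 belongs to the oligoadenylate synthetases, enzymes that respond to double-stranded RNA. It had the largest change of the members at 18 against 2 months, 1.18 ± 0.35 or 2.26-fold, which missed the threshold (limma adjusted p = 0.0609). The probe set (1453196_a_at) read 5.34, 4.91 and 6.25 at 2 months, 6.06, 6.18, 5.52 and 6.53 at 10 months, and 6.56, 6.10, 7.34 and 6.72 at 18 months. Young arrays 3 and 4 were above 18-month array 2, and without these young arrays Oasl2 was called (1.56, limma adjusted p = 0.0216). It was also called without 10-month array 3 (1.18, adjusted p = 0.0345) and with each array centred on its median (1.24, adjusted p = 0.0491). Bst2, also named tetherin, holds budding virus at the cell surface. Its probe set (1424921_at) read 6.52, 6.56 and 6.67 at 2 months, 6.69, 6.83, 6.66 and 6.65 at 10 months, and 6.80, 6.03, 7.15 and 6.48 at 18 months. The 18-month samples ran from below to above all younger samples, with an SD of 0.48 against 0.08 at 2 months, and the change was 0.03 ± 0.21 (95% confidence interval −0.42 to 0.48, limma adjusted p = 0.946).

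Of the transcription factors, Irf9 is the subunit that recognises the ISRE. The Irf9 probe set (1421322_a_at) read 7.06, 7.0 and 7.45 at 2 months, 7.32, 7.46, 7.17 and 7.36 at 10 months, and 7.83, 7.41, 7.98 and 7.48 at 18 months. Only 18-month array 2, at 7.41, fell within the young range, and the change was 0.51 ± 0.16 (limma adjusted p = 0.078). Irf9 was called without young arrays 3 and 4 (0.65, adjusted p = 0.045) and with median centring (0.57, adjusted p = 0.0466). Stat2 carries the activation domain of the complex. Its brighter probe set (1421911_at) ranged over 5.86 to 6.19 at 2 months, 5.91 to 6.26 at 10 months and 5.97 to 6.18 at 18 months, and the dimmer one (1450403_at) over 4.75 to 4.86, 4.67 to 4.81 and 4.76 to 4.79. The ages overlapped in both, and the changes at 18 against 2 months were 0.06 ± 0.12 (95% confidence interval −0.20 to 0.32) and −0.04 ± 0.09 (−0.23 to 0.15). These intervals, from the fit without a covariate, leave out a 1.3-fold change, 0.38 on the log2 scale, in either direction. Adjusted for the 3′ to 5′ difference, the brighter probe set was at −0.33 ± 0.32, which does not leave it out. The dimmer one averaged 4.77, near the lower quartile of 4.57, and ranged over 0.19, against a median range of 0.71 over all probe sets. Whether it could register a change in Stat2 RNA was not tested. Irf7 amplifies the response by inducing further interferon genes. Its probe set (1417244_a_at) read 6.69, 6.39 and 6.85 at 2 months, 6.69, 6.99, 6.23 and 6.65 at 10 months, and 6.84, 6.32, 7.56 and 6.58 at 18 months. The ages overlapped and 18-month array 3 was the highest of all samples. The Irf7 change was 0.18 ± 0.26 (limma adjusted p = 0.734), and it was −0.06 without 18-month array 3.

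Usp18 is the feedback inhibitor of the group, since it removes Isg15 from proteins and blocks signalling at Ifnar2. The probe set (1418191_at) read 5.85, 5.54 and 6.76 at 2 months, 6.55, 6.74, 6.04 and 7.08 at 10 months, and 6.70, 6.57, 7.68 and 6.75 at 18 months. Young arrays 3 and 4 were above 3 of the 4 samples of 18 months. The change was 0.87 ± 0.34 (95% confidence interval 0.14 to 1.61, limma adjusted p = 0.142).

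**Figure D2:**
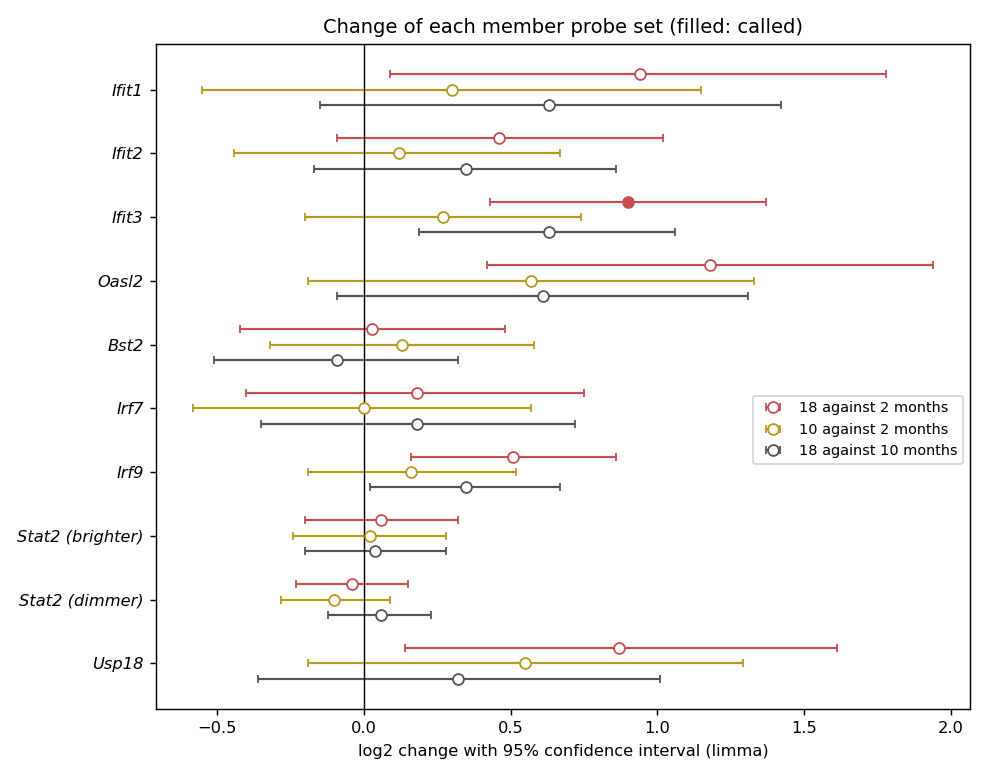
log2 change (x axis) of each member probe set (y axis) with its 95% confidence interval from limma, for 18 against 2 months, 10 against 2 months and 18 against 10 months, with called changes filled. The only filled point is Ifit3 at 18 against 2 months (0.90), and the intervals of Ifit1, Ifit3, Oasl2, Irf9 and Usp18 in that comparison lie above 0.

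Next, the intervals from 2 to 10 and from 10 to 18 months were compared to determine when the changes arose. None of the 10 member probe sets was called by limma at 10 against 2 months, while 1.36% of all probe sets were, and none had an unadjusted p under 0.05. The largest changes were those of Oasl2 (0.57 ± 0.35, limma adjusted p = 0.484) and Usp18 (0.55 ± 0.34, adjusted p = 0.488), and Ifit3 changed by 0.27 ± 0.21 (adjusted p = 0.618). These values moved when single young samples were left out. Oasl2 was at 0.27 without young array 2 and 0.95 without young arrays 3 and 4, Usp18 at 0.30 and 0.91 in the same fits, and Ifit3 at 0.11 without young array 1 and 0.43 without young array 2. At 18 against 10 months no member was called by limma either, and 0.00222% of all probe sets were, with 2 of 10 members and 5.06% of all probe sets at an unadjusted p under 0.05. Ifit3 was higher by 0.63 ± 0.20 (limma unadjusted p = 0.00866, adjusted p = 0.847) and Irf9 by 0.35 ± 0.15 (unadjusted p = 0.0392, adjusted p = 0.847). The contrast of the earlier with the later interval called 0 of 10 members and 0% of all probe sets (limma), with 0 of 10 members and 5.47% of all probe sets at an unadjusted p under 0.05. The lowest adjusted p of a member there was 0.92. For Ifit3 this difference was −0.35 ± 0.35 and for Oasl2 −0.04 ± 0.57, and so the data did not place the change in one interval. Comparisons that share an age share its samples.

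The members differed in how they varied over the samples. After each probe set was set to a mean of 0 over the 11 samples, the root mean square difference was smallest between Oasl2 and Usp18 (0.18 log2 units), Ifit1 and Oasl2 (0.20), Ifit1 and Usp18 (0.21) and Irf7 and Bst2 (0.21), with Stat2 at its brighter probe set. It was largest between the neighbours Ifit1 and Ifit2 (0.80), and was 0.40 between Ifit2 and Ifit3. This measure also depends on how much a probe set varies, and Stat2 ranged over 0.40 where Ifit1 ranged over 2.25. No values for pairs of other genes were computed. Within an age the same samples were often at the end of the range. Array 3 was the highest 18-month sample for 7 members (Ifit1, Ifit3, Irf7, Irf9, Bst2, Oasl2 and Usp18), as for 25.2% of all probe sets. Array 2 was the lowest 18-month sample for 8 members, all but Ifit2, counting Stat2 at its brighter probe set, as for 22.3% of all probe sets. Young arrays 3 and 4 were highest at their age for 6 members (35.1% of all), and 10-month array 3 was lowest for 5 (46.3% of all), also with Stat2 at its brighter probe set. These are descriptions over samples that share their arrays, and no cause was tested.

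**Figure D3:**
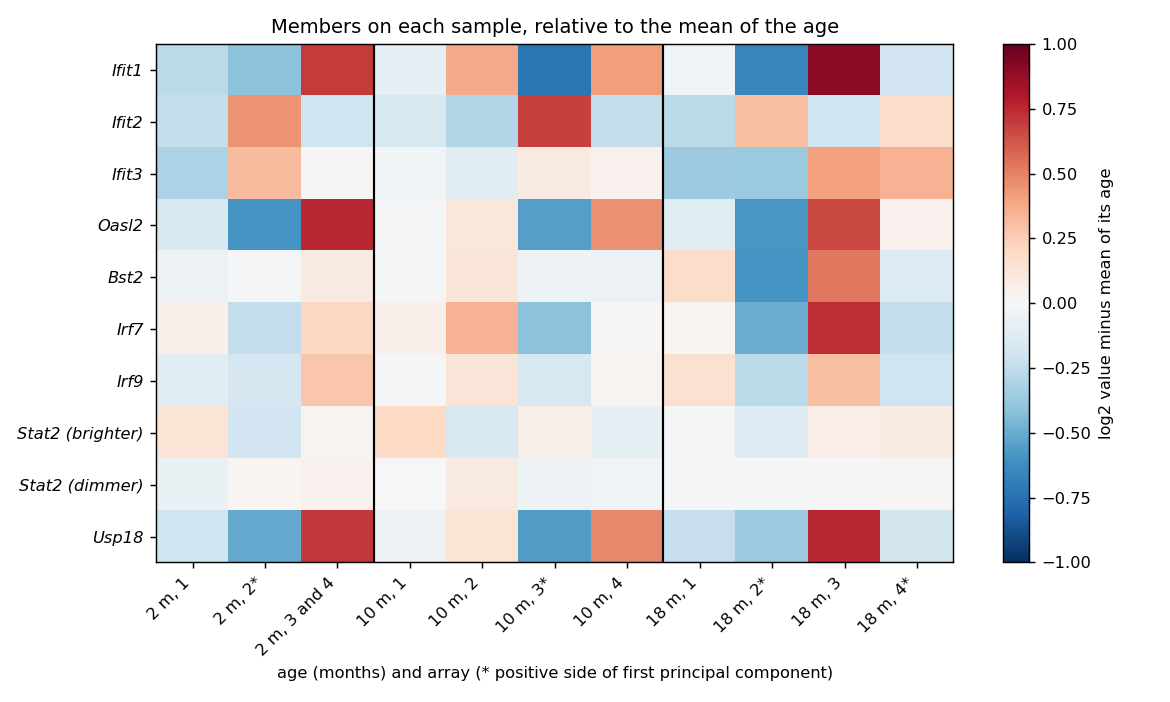
Each member probe set (y axis) in every sample (x axis, by age in months and array), as the log2 value minus the mean of its age (colour, from −1 to 1), with PC1-positive arrays starred. Ifit1, Oasl2 and Usp18 are high together in young arrays 3 and 4 and 18-month array 3 and low together in young array 2 and 10-month array 3, where Ifit2 is high.

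The PC1-positive arrays differed from the others in most members. Ifit1, Irf7, Irf9, Bst2, Oasl2 and Usp18 had lower means in them at all 3 ages, and 34% of all probe sets did. For Bst2 the difference was only −0.03 at 2 months and −0.07 at 10 months, each with 1 PC1-positive array, and −0.72 at 18 months. For Ifit1 the difference was −0.62 at 2 months, −0.96 at 10 months and −0.85 at 18 months. Ifit2 was higher at all ages, by 0.67, 0.91 and 0.47, as were 22.6% of all probe sets, and Ifit3 differed by 0.48, 0.13 and −0.03. The ages held unequal shares of these arrays, with 2 of 4 samples at 18 months and 1 of 3 at 2 months. When the side of the component was added as a covariate, a choice made after seeing the data, 5 member genes were called higher at 18 against 2 months, and so were 9.3% of all probe sets. Oasl2 then changed by 1.3 ± 0.24 (limma adjusted p = 0.00423), Ifit1 by 1.07 ± 0.26 (adjusted p = 0.0134), Usp18 by 0.99 ± 0.24 (adjusted p = 0.0149), Ifit3 by 0.87 ± 0.20 (adjusted p = 0.0119) and Irf9 by 0.56 ± 0.11 (adjusted p = 0.00625). Ifit2 stayed below the fold threshold (0.35 ± 0.11, 1.28-fold, adjusted p = 0.0387), and Irf7 (0.28 ± 0.16), Bst2 (0.09 ± 0.17) and both Stat2 probe sets were not called. Without the 4 arrays, Ifit3 (1.08, adjusted p = 0.0283) and Irf9 (0.65, adjusted p = 0.0381) were called, against 4.03% of all probe sets. Within the PC1-positive arrays alone the 18-month minus 2-month difference was 1.5 for Oasl2, 1.12 for Usp18, 0.92 for Ifit1 and 0.56 for Ifit3 (2 samples against 1), and within the others 1.15, 0.89, 1.16 and 1.08 (2 samples against 2). Bst2 differed by −0.31 in the first set and 0.38 in the other, with no test.

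**Figure D4:**
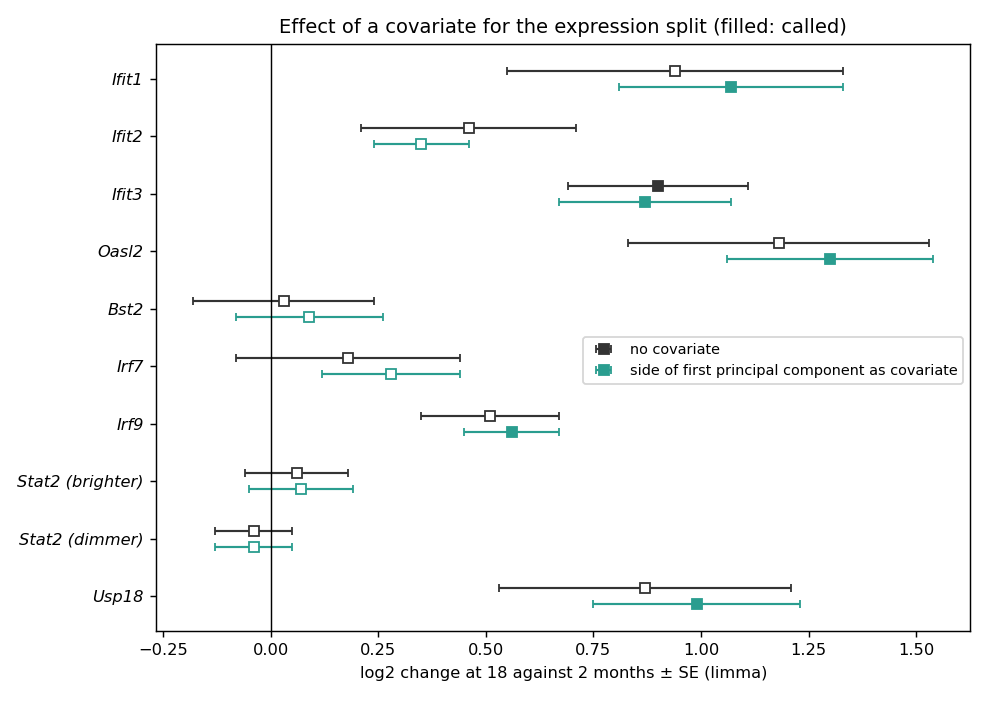
log2 change at 18 against 2 months (x axis, ± SE from limma) of each member probe set (y axis) with no covariate and with the side of the first principal component as a covariate, called changes filled. With the covariate Ifit1, Ifit3, Oasl2, Irf9 and Usp18 are filled, with values from 0.56 to 1.3, and both fits place Stat2 and Bst2 between −0.04 and 0.09.

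The rest of the pathway was described from lists of its ligands, receptors, regulators, sensors and effectors, each gene at its brightest probe set, beside all 18193 genes, of which 1050 rose and 555 fell at 18 against 2 months with a median change of −0.02. None of 10 interferon genes was called, and their median change was −0.15. Ifnb1, the interferon beta gene, was at 5.26 ± 0.14 at 18 months and 5.49 ± 0.13 at 2 months, a change of −0.23 ± 0.15 (limma adjusted p = 0.412), and Ifna1 (−0.22 ± 0.11) and Ifnz (−0.24 ± 0.13) were not called. Of 9 receptors and signal transducers, Jak1, the kinase bound to Ifnar2, was the 1 called at its brightest probe set, and it rose by 0.95 ± 0.20 (adjusted p = 0.0174). Jak1 was at 9.10 ± 0.17 at 18 months and 8.15 ± 0.43 at 2 months, with no overlap. Its 2 other probe sets changed by −0.57 and 1.3 and were not called. The Jak1 call was lost without young array 1 (0.86, adjusted p = 0.107) or 2 (0.79, adjusted p = 0.066). Jak2 was not called at its brightest probe set (0.05 ± 0.12), while its other probe set was called at 1.18 ± 0.25 (adjusted p = 0.0186). Ifnar2 was likewise not called at its brightest probe set (0.25 ± 0.29), while of its 2 others 1 was called at −0.65 ± 0.18 (adjusted p = 0.0488) and 1 was at 0.12.

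Of 9 other interferon regulatory factors and negative regulators, Irf8, a factor that microglia need to develop, rose by 0.99 ± 0.11 (limma adjusted p = 0.0036). It was at 7.58 ± 0.11 at 18 months and 6.59 ± 0.16 at 2 months, while its other probe set changed by 0.01. Irf3, the factor that starts interferon transcription, changed by −0.17 ± 0.22 and Irf1 by 0.01 ± 0.10, and Pias1, which restrains Stat proteins, by −0.08 ± 0.25, all without a call at the brightest probe set. Of the 3 other probe sets of Irf3, 1 was called at −0.87 ± 0.18 (adjusted p = 0.0187), and those of Pias1 ranged from −0.32 to 0.55 without a call. None of 15 sensors and adaptors was called at its brightest probe set, with Mavs, the mitochondrial adaptor of RNA sensing, at −0.67 ± 0.31, the double-stranded RNA receptor Tlr3 at 0.21 ± 0.15 and the kinase Tbk1 at 0.03 ± 0.14. Each of these had 1 other probe set, which was called for Tlr3 (0.86 ± 0.19, adjusted p = 0.0226) and not called for Tbk1 (0.80 ± 0.24) or Mavs (0.77 ± 0.24), the last in the opposite direction.

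Among 60 other interferon-stimulated effectors, 6 rose, none fell, and the median change was 0.10. Of all 18193 genes 1050 rose and 555 fell, with a median change of −0.02. The secreted glycoprotein Lgals3bp rose by 1.14 ± 0.31 (limma adjusted p = 0.0475), the lipid scramblase Plscr1 by 0.91 ± 0.18 (adjusted p = 0.0146), the GTPase Irgm1 by 0.83 ± 0.20 (adjusted p = 0.0294) and Parp9, of the ADP-ribosyltransferase family, by 0.76 ± 0.14 (adjusted p = 0.0103). Ifi204, a DNA-binding protein, rose by 0.57 ± 0.14 (adjusted p = 0.0296), with values of 3.06 to 3.91 that lay below the lower quartile of probe set means, 4.57. Trim30a, of the tripartite motif family, rose by 0.43 ± 0.11 (adjusted p = 0.0356), and its other probe set changed by −0.27, while those of Plscr1 changed by 0.62 and −0.13. Ly6e (0.19 ± 0.25) and the RNA-editing enzyme Adar (−0.05 ± 0.22) were not called, and neither were their other probe sets (−0.32 for Ly6e, 0.60 and −0.28 for Adar). Ifi27 was not called at its brightest probe set (0.54 ± 0.18), while its other probe set was called at 1.4 ± 0.23 (adjusted p = 0.0081). All 6 effector calls were lost without young array 1 (adjusted p = 0.0635 to 0.216). In that fit the calls over all probe sets fell from 3359 to 423. Of the 11 fits that left out 1 sample, the call of Lgals3bp was lost in 8, that of Trim30a in 7, that of Ifi204 in 6, that of Irgm1 in 4, and those of Parp9 and Plscr1 in 1 each. No gene of these interferon lists was called at its brightest probe set at 10 against 2 months or at 18 against 10 months. As for the members, array 3 was often the highest 18-month sample, for 31 of the 60 effectors and for 25.2% of all probe sets. The 5 genes nearest to Ifit3 over the 11 samples, out of 15533 compared, were Parp12 and Parp9 (root mean square difference 0.24 each), Add2 (0.25), Eml1 (0.26) and Tgfbr2 (0.27). Nearness was taken over samples of all ages, so the age difference of Ifit3 was part of the match. Calls among these 5 genes therefore follow in part from how they were chosen. Parp12 (0.83 ± 0.17), Parp9, Eml1 (0.89 ± 0.18) and Tgfbr2 (1.01 ± 0.11) were called at 18 against 2 months, and Add2 was not (0.65 ± 0.18, adjusted p = 0.0501). The 2 other probe sets of Tgfbr2 changed by −0.06 and 0.04, and the 4 others of Add2 by −0.71 to 0.09, all without a call. The calls of Parp12 and Eml1 were also lost without young array 1 (adjusted p = 0.0991 and 0.0988).

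**Figure D5:**
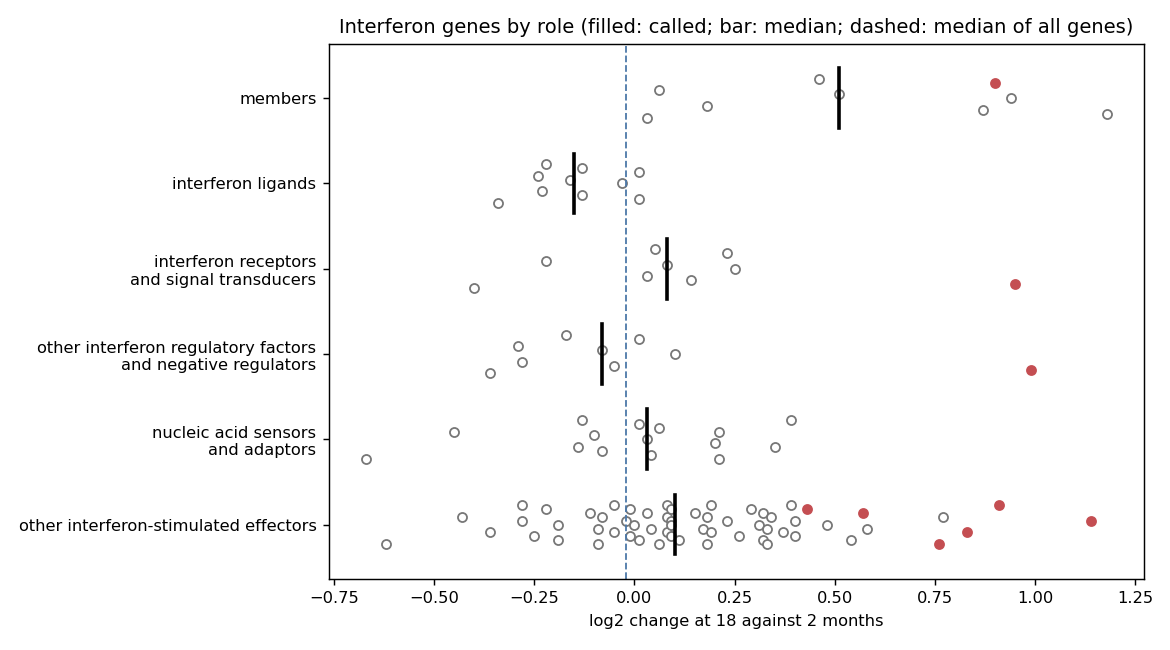
log2 change at 18 against 2 months (x axis) of each gene in the interferon lists (y axis), at its brightest probe set, with called genes filled, the median of each list as a bar and the median of all genes (−0.02) dashed. The members have a median of 0.51 over 9 genes and the ligands one of −0.15, and all filled points lie above 0.

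Markers of cell types moved with age in the same samples. Of all 18193 genes 1050 rose and 555 fell at 18 against 2 months. In 10.4% of single probe sets all 18-month samples were above all 2-month samples, and no such share was computed for averages over lists. Microglia markers averaged 8.55 to 8.91 at 18 months and 8.18 to 8.41 at 2 months, without overlap, and 4 of 15 rose and none fell. P2ry12, a purine receptor of resting microglia, rose by 1.58 ± 0.23 (limma adjusted p = 0.00513), the lysosomal proteins Cd68 by 1.44 ± 0.29 (adjusted p = 0.0153) and Ctss by 0.69 ± 0.10 (adjusted p = 0.00579), and Tmem119 by 0.51 ± 0.14 (adjusted p = 0.0463). The Tmem119 call was lost in 8 of the 11 fits without 1 sample (adjusted p = 0.0593 to 0.189) and that of Cd68 without young array 1 (adjusted p = 0.0971). Cx3cr1, the microglial fractalkine receptor, was at 8.17 ± 0.24 at 18 months and 8.03 ± 0.14 at 2 months and was not called. At 10 months the microglia markers averaged 8.45 to 8.88, above the young range as well. Leukocyte markers averaged 4.98 to 5.21 at 18 months and 5.18 to 5.25 at 2 months, and none of 10 was called, with Cd3e of T cells at 0.20 ± 0.15. Endothelial markers averaged 7.92 to 8.26 at 18 months and 7.78 to 7.91 at 2 months, ranges that nearly touched. Astrocyte markers averaged 11.5 to 11.8 at 18 months and 11.3 to 11.4 at 2 months, without overlap. No endothelial marker of 9 and no astrocyte marker of 10 was called, with Pecam1 at 0.15 ± 0.13, Cldn5 at 0.07 ± 0.20, Gfap at 0.43 ± 0.41 and Aqp4 at 0.27 ± 0.17. Clic6 rose among 10 markers of choroid plexus and meninges (0.76 ± 0.19), where Ttr was at −1.92 ± 0.70 without a call. Of 12 dopaminergic markers Th (0.84 ± 0.14) and Calb1 (0.70 ± 0.15) rose and Foxa2 (−0.61 ± 0.15) and En1 (−0.54 ± 0.11) fell, and Slc6a3 was not called (0.20 ± 0.09). The 3 other probe sets of Calb1 changed by −0.04, 0.37 and 0.65, and only the last was called. Single samples ended the calls of Clic6 in 7 of the 11 fits, of Foxa2 in 5, of Calb1 in 2 and of En1 in 1. The part of these marker changes in the values of the interferon-response genes was not tested.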

How the data were processed

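The deposited values were log2 expression values per probe set, which the authors made from the scanner files of 12 arrays by RMA background correction, normalization and summarization, and limma 3.4.5 is listed in the submitters' processing notes. Of 45101 probe sets, 64 controls were left out. The annotation gave 1 gene for 34945 of the 45037 tested, several for 932 and none for 9160. Scanner files were not used, and an array has no read depth, so the number of arrays limits the precision. The 11 samples of all ages entered a single linear model (limma 3.58.1, R 4.3.3), with a mean per age, moderated errors and Benjamini-Hochberg adjustment over 45037 probe sets. A gene with several probe sets stood at its brightest. Members, lists and alternatives were chosen with earlier results of these data known. The text names all members, the called genes and the 3 brightest of each interferon list, called and defining markers, and the 5 genes nearest to Ifit3. Alternatives were 12 separate arrays, a replicate block, covariates, centring, filters and leaving out each sample. The script was tested on simulated data. Protein sequences were not used here.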

Additional observations from a re-analysis of the deposited data

Results flagged for a closer look

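In 2 of the 20 sets of values tested (10 member probe sets at 10 and at 18 months, 4 samples each), 1 sample lay far from the rest of its age, where chance gives about 1 in 20. Ifit2 at 10 months was 9.53 in array 3, a PC1-positive array, against 8.56 to 8.69 in the other arrays, and this gap was 0.858 of the whole range. Usp18 at 18 months was 7.68 in array 3, against 6.57 to 6.75 in the other arrays, and the gap was 0.838 of the range.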

How the results depend on the processing

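At 18 against 2 months 1 member probe set was called, and the count was 0 with the 3′ to 5′ difference as covariate and 0 when only these ages were fitted. It was 3 with median centring (Ifit3, Irf9 and Oasl2), 0 to 2 when single samples were left out, and, under alternatives chosen after seeing the data, 5 with the first principal component side as covariate and 2 without the 4 PC1-positive arrays. Leaving out young array 1 or 18-month array 3 or 4 gave 0. Leaving out young arrays 3 and 4 (Irf9 and Oasl2) or 10-month array 3 (Ifit3 and Oasl2) gave 2. The cause was not tested. Over all probe sets 3359 were called, against 0 with the 3′ to 5′ covariate, 7576 with the component side and 423 without young array 1. This array-wide count was 3903 when only the ages compared were fitted and 3466 with median centring. It was 3150 without young arrays 3 and 4 and 5326 without 10-month array 3. Without 18-month array 3 it was 1937, without 18-month array 4 it was 1951, and without the 4 PC1-positive arrays it was 3410. The count of members at 10 against 2 months, at 18 against 10 months and of unequal intervals was 0 in all settings run. The replicate block was fitted on the 12 arrays, where the count was 1 and Ifit3 changed by 0.90 ± 0.18 (limma adjusted p = 0.0266). The replicate numbers showed no pairing of the samples. Same-numbered deviations correlated above 0.1 in 4 of 12 pairs, and differently numbered ones in 18 of 36. With the block Lgals3bp (adjusted p = 0.0579), Trim30a (0.0618) and Tmem119 (0.0923) were not called, and Tmem119 was not called with a trend and robust prior (0.0742).

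Values that changed sign were, except for Ifit3 and Eml1 at 18 against 2 months, of changes not called. With the 3′ to 5′ covariate they were, at 18 against 2 months, Ifit3 −0.11, Irf7 −0.29, the brighter Stat2 probe set −0.33, Bst2 −0.57, Ifnb1 0.58, Pias1 0.03, Mavs 0.26, Ly6e −0.08, Cx3cr1 −0.57, Pecam1 −0.44, Cldn5 −0.02 and Eml1 −0.01, at 10 against 2 months Ifit2 −0.22, Ifit3 −0.62, the brighter Stat2 probe set −0.33 and Bst2 −0.41, and at 18 against 10 months the brighter Stat2 probe set −0.01. With median centring they were the dimmer Stat2 probe set 0.02 and Adar 0.01 at 18 against 2 months and Irf7 0.05 at 10 against 2 months. With the component side as covariate Tbk1 was 0.00 and Adar 0.03. Without the PC1-positive arrays the brighter Stat2 probe set was −0.01, Jak2 −0.14, Tbk1 −0.22, Adar 0.16 and Cldn5 −0.15 at 18 against 2 months, Irf7 0.01 and the brighter Stat2 probe set −0.09 at 10 against 2 months, and Bst2 0.25 at 18 against 10 months.

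Leaving out single samples turned the sign of these values, none of them called: at 18 against 2 months Irf7 from −0.06 to 0.35, the brighter Stat2 probe set from −0.03 to 0.13, Bst2 from −0.15 to 0.23, Jak2 from −0.07 to 0.15, Pias1 from −0.23 to 0.04, Irf1 from −0.03 to 0.04, Tbk1 from −0.04 to 0.11, Adar from −0.19 to 0.11, Cldn5 from −0.02 to 0.28, at 10 against 2 months Ifit2 from −0.11 to 0.34, Irf7 from −0.13 to 0.13, the brighter Stat2 probe set from −0.07 to 0.09, and at 18 against 10 months Irf7 from −0.06 to 0.35, the brighter Stat2 probe set from −0.01 to 0.10, Bst2 from −0.27 to 0.10.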
